A study of Mus musculus with 8 samples.

Results

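The Myc, Max and Mxd network was followed through a block of transcription in mouse embryonic stem cells. Its 10 genes, Myc, Mycn, Mycl, Max, Mxd1, Mxd3, Mxd4, Mxi1, Mnt and Mga, were found by taking every probe that is not a control and whose RefSeq accession belongs to one of them. That rule, which uses no measured value, gave 12 of the 55681 probes on the array, for 10 of the 20972 genes it names. Mxd1 and Mxd4 have 2 probes each and the other genes 1. Of the 12 probes, 10 passed the filter on signal, and all 10 were well above background on all 8 arrays, so no member entered through a single group. They measure 9 of the 10 genes. The probe for Mxi1 and 1 of the 2 probes for Mxd4 did not pass.

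The study compared 3 groups of embryonic stem cells, all grown with the cytokine LIF and with 250 nM PD173074, an inhibitor of the FGF receptors that signal to Erk. The untreated group (n = 3 arrays) received no further agent and was collected at 0 h. Both other groups were given 5 µM actinomycin D, which stops RNA synthesis, and 30 min later either ethanol, the vehicle (n = 2), or 250 nM 4OHT, the active metabolite of tamoxifen (n = 3), for 4 h. The labels do not name the cell line, its genotype or what 4OHT acts on, and the series as a whole is about Erk and mRNA breakdown. Each condition had 3 biological replicates by the series' design, of which 2 vehicle arrays were analysed here. The 8 embryonic stem cell markers examined, among them Pou5f1, Sox2 and Nanog, were well above background on all 8 arrays. Of 8 feeder fibroblast markers, 3 reached that level on all 8 arrays and 2, Postn and Lum, on none. The corresponding numbers were 2 of 6 for primitive endoderm, 2 of 5 for trophoblast, with Elf5 on none, and 2 of 5 for neuroectoderm and mesoderm. In such bulk RNA, fewer cells of a type and less RNA per cell cannot be told apart.

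Proteins of the Myc family (Myc, Mycn and Mycl) are transcription factors that bind DNA only as a pair with Max, and such pairs activate genes of growth and ribosome production. The Mxd proteins (Mxd1, Mxi1, Mxd3 and Mxd4) and Mnt pair with the same Max and recruit repressors to the same DNA, the E-box. Mga also pairs with Max, and in embryonic stem cells it is a core subunit of a Polycomb complex that holds germ line genes silent. Myc mRNA is a textbook case of a short-lived message, and Myc and Mycn can replace each other in large part in stem cells. With synthesis blocked, the level of a message reports mainly on its breakdown.

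Some members have the network's own binding letters in front of their genes. RefSeq windows (build GRCm38.p6, 250 bases before the gene's start) were found for 9 of the 10 genes, 11 windows in all. None was found for Myc, which was therefore not searched. The 11 windows were searched for CACGTG, the E-box, which reads the same on both strands. They were also searched on both strands for TTTNGCGC, a form of the site of the E2F factors of the cell cycle. CACGTG stood in the windows of 2 members, Mnt and Mxd4, and in 6.02% of all 32851 windows of that length. In Mnt (chr11:74830674-74830923, plus strand) it began 123 bases before the start, and in Mxd4 (chr5:34187711-34187960, minus strand) 219 bases before it. TTTNGCGC stood in the window of 1 member, Mycn (chr12:12941837-12942086, minus strand), with 3 matches of which the first 2 overlap, and in 1.13% of all windows. These windows are printed because they are the members' windows that hold such letters. Capitals mark the matches. The arrays measured RNA and no binding at these places.
Mnt: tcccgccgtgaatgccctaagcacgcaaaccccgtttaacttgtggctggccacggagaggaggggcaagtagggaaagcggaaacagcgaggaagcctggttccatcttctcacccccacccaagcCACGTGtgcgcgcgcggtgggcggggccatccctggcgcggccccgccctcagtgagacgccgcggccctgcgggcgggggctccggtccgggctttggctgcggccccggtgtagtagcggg
Mxd4: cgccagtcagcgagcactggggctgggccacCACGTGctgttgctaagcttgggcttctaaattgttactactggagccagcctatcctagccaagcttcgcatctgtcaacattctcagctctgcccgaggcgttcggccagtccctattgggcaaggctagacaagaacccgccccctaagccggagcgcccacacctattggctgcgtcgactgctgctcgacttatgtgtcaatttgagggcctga
Mycn: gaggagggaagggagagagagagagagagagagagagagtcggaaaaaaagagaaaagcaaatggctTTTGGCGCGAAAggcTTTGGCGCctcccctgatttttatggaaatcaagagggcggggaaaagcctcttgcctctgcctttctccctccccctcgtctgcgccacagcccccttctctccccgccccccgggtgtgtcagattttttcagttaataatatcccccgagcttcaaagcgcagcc

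Levels are given as log2 of the deposited signal minus log2 of the array's 75th percentile (relative signal), so 0 is the level of a probe at the upper quartile of its array. Differences between groups were tested with limma over all 28491 features, and a gene was called where its Benjamini-Hochberg adjusted p was below 0.05. The 75th percentile itself was 333 to 457 signal units untreated, 166 and 205 with vehicle and 180 to 209 with 4OHT. Against the spike-in control probes, RNA added in a known amount, it lay at -3.57 to -3.39 (log2) untreated, -4.83 and -4.71 with vehicle and -5.26 to -4.79 with 4OHT. Between 52.97% and 75.7% of spots were well above background on an array. A relative signal therefore says where a message stands among the others. The spike-in scale, given beside it, relates it to the fixed mass of total RNA that was labelled. The median of all features moved by 0.40 from untreated to vehicle on the first scale and by -0.88 on the spike-in scale. From vehicle to 4OHT it moved by -0.05 and by -0.36.

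Under actinomycin D with vehicle, 6 of the 9 tested genes fell relative to untreated cells, 1 was higher and 2 were not called. Over all features 15.9% were called lower and 41.5% higher. The genes that fell were Myc, Mycn, Mnt, Mxd3, Mxd1 and Max, and Mxd4 was higher. The members' median difference was -0.80, beside 0.40 for all features. Untreated and vehicle arrays lie on 1 slide, in different rows. On the spike-in scale all 9 members were called lower, where 65.0% of all features were called lower and 0.112% higher, with medians of -2.08 and -0.88. With at least 2-fold required, 3 members were lower, Myc, Mycn and Mnt, beside 10.4% of all features.

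**Figure D1:**
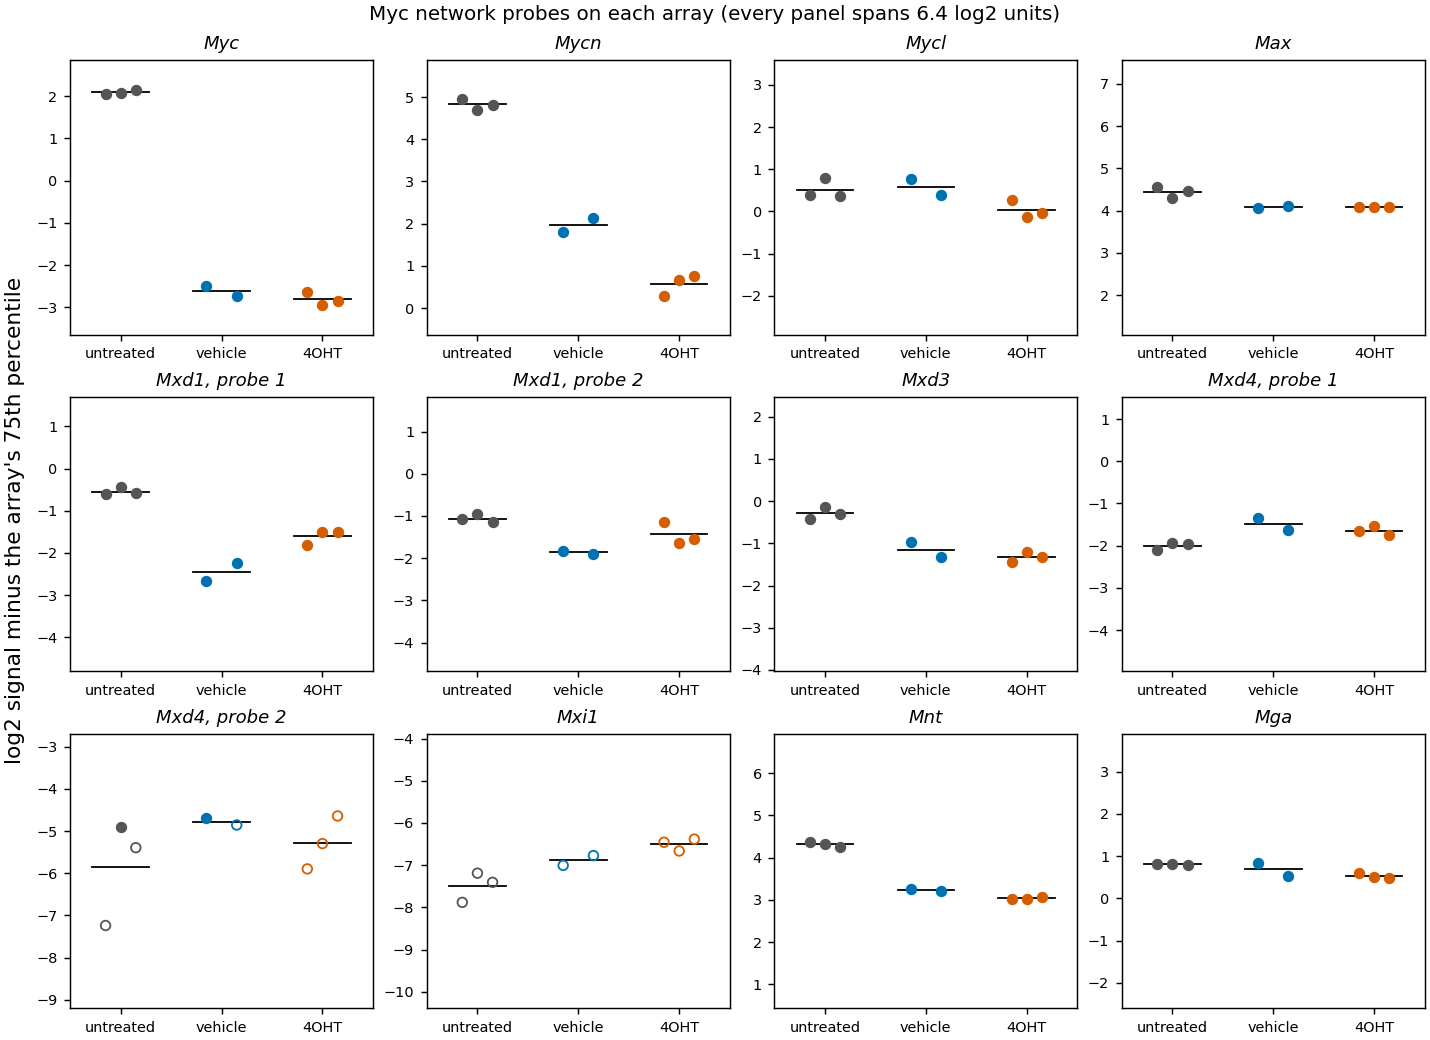
Relative signal (log2, 0 = the array's 75th percentile) of the network probes on each of the 8 arrays, 1 panel a probe. Untreated, vehicle and 4OHT arrays are separate groups of points. Myc lies above 2 on the 3 untreated arrays and below -2.5 on the 5 others, whereas Mycn steps down from 4.83 to 1.98 and then to 0.57 (group means).

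Myc, the founding member, was lost almost to the lower end of the array's range. It read 2.06, 2.09 and 2.16 untreated, -2.50 and -2.73 with vehicle, and -2.63, -2.94 and -2.86 with 4OHT. The untreated arrays stand far above all 5 arrays with actinomycin D, and the vehicle and 4OHT arrays overlap. Vehicle against untreated, the difference was -4.72 ± 0.13 (SE, adjusted p = 3.7e-06), a 26.3-fold lower relative signal. Only 0.133% of all features had a difference as low or lower. Measured against the spike-in probes, 1.57% of the untreated Myc signal was left (95% interval 1.04 to 2.37%).

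The depth behind the low Myc values is limited. Its signal was 1386 to 1943 units on the untreated arrays and 23.4 to 33.7 units under actinomycin D. The lowest signal called well above background on the same arrays was 5.40 to 10.9 units. Myc lay 165 to 220 times above that mark untreated, 3.45 and 5.43 times with vehicle and 2.54 to 4.18 times with 4OHT. The probe is spotted in duplicate on each array, and the pair of spots differed by 0.02 to 0.36 (log2). When 50 units were added to every signal before the log, in the normexp background correction, the Myc difference shrank to -3.35 and was still called.

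Mycn, the member that is prominent in embryonic tissue, fell less and stood at a separate level in each group. Relative signal was 4.96, 4.69 and 4.82 untreated, 1.81 and 2.15 with vehicle, and 0.29, 0.66 and 0.76 with 4OHT. No array of one group reached the range of another. Vehicle against untreated, Mycn fell by 2.85 ± 0.18 on the log2 scale (adjusted p = 7.1e-05), which is 7.19-fold. Of its untreated signal 5.74% was left on the spike-in scale (4.04 to 8.16%). In signal units Mycn went from between 10391 and 11813 untreated to 584 and 908 with vehicle, far above the lowest detected signals.

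Mycl, the third of the family, was not called. Its arrays read 0.39, 0.80 and 0.36 untreated, 0.77 and 0.38 with vehicle, and 0.27, -0.13 and -0.04 with 4OHT. The untreated and vehicle ranges coincide almost entirely, and the difference was 0.06 ± 0.20 (adjusted p = 0.82, 95% interval -0.42 to 0.53). Its sign is not settled: on the spike-in scale the difference was -1.22, with 43.0% of the untreated signal left (27.4 to 67.5%). On that scale the median feature was at -0.88, Mycn at -4.12 and Myc at -5.99.

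Max, the shared partner, fell by a small amount. It read 4.57, 4.29 and 4.46 untreated, 4.06 and 4.11 with vehicle, and 4.09, 4.08 and 4.09 with 4OHT. The vehicle arrays lie just below the lowest untreated array. Max fell by 0.35 ± 0.11 (adjusted p = 0.025), and on the spike-in scale 32.3% of its untreated signal was left (22.3 to 46.6%). The call did not hold without untreated replicate 1 or 3 (adjusted p = 0.058 and 0.065) or without vehicle replicate 1 or 2 (adjusted p = 0.10 and 0.07), nor with each array centred on its median (adjusted p = 0.40). Over 23 alternatives its adjusted p ran from 0.00023 to 0.40. The difference was -0.83 after quantile normalization and -0.54 with the normexp offset.

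Among the partners that repress, Mnt had the smallest standard error of its fall. Mnt, which is made in growing as well as in resting cells, read 4.37, 4.31 and 4.26 untreated, 3.26 and 3.20 with vehicle, and 3.01, 3.03 and 3.08 with 4OHT. The groups are tight and do not overlap. It fell by 1.08 ± 0.09 (adjusted p = 0.00018), with 19.5% left on the spike-in scale (14.0 to 27.1%). The windows of Mnt and of Mxd4, which was called higher, hold the E-boxes printed above.

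Mxd3, the Mxd member known from cells in S phase, fell by 0.87 ± 0.15 (adjusted p = 0.0023). Its arrays read -0.42, -0.13 and -0.30 untreated, -0.97 and -1.32 with vehicle, and -1.43, -1.22 and -1.32 with 4OHT. All 5 arrays with actinomycin D lie below the 3 untreated ones. The share left on the spike-in scale was 22.6% (16.1 to 31.7%), and with the normexp offset the difference was -0.56.

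Mxd1, known for its rise in cells that leave the cycle, fell on both of its probes, by unequal amounts. Its main probe, the one with the higher mean over the 8 arrays, stands for the gene in the fit and read -1.08, -0.95 and -1.15 untreated, -1.82 and -1.90 with vehicle, and -1.14, -1.63 and -1.54 with 4OHT. It fell by 0.80 ± 0.16 (adjusted p = 0.0048) from untreated to vehicle. The other probe read -0.60, -0.45 and -0.59 untreated, -2.66 and -2.23 with vehicle, and -1.81, -1.51 and -1.51 with 4OHT. In a fit of all 33008 kept probes, where 16.0% were called lower, it fell by 1.90 ± 0.16 (adjusted p = 2e-04). The 2 probes give the same order of the groups, lowest with vehicle, and their sizes differ. With the normexp offset the difference of the first probe was -0.26.

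Mxd4 was the 1 member with a higher relative signal under actinomycin D, and this holds only on scales that centre each array. It read -2.09, -1.94 and -1.96 untreated, -1.35 and -1.62 with vehicle, and -1.65, -1.54 and -1.75 with 4OHT. Vehicle exceeded untreated by 0.51 ± 0.12 (adjusted p = 0.011), close to the median shift of 0.40 over all features. Without any scaling the difference was -0.59, and on the spike-in scale -0.77, with 58.8% of the untreated signal left (40.8 to 84.7%). The call was lost without vehicle replicate 1 (0.38, adjusted p = 0.067), and adjusted p ran from 0.00053 to 0.12 over the alternatives. Its second probe was well above background on 1 untreated and 1 vehicle array only, with relative signals from -7.24 to -4.64, and was not tested.

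Mga was not called. It read 0.82, 0.82 and 0.80 untreated, 0.83 and 0.54 with vehicle, and 0.61, 0.50 and 0.47 with 4OHT, so vehicle replicate 1 matches the untreated arrays. The difference from untreated to vehicle was -0.13 ± 0.11 (adjusted p = 0.37, 95% interval -0.39 to 0.14), and 0.02 without vehicle replicate 2. By the spike-in probes 37.8% was left (26.0 to 54.9%). Mxi1, the remaining Mxd gene, was not well above background on any array, with relative signals between -7.88 and -6.38, and gives no difference.

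**Figure D2:**
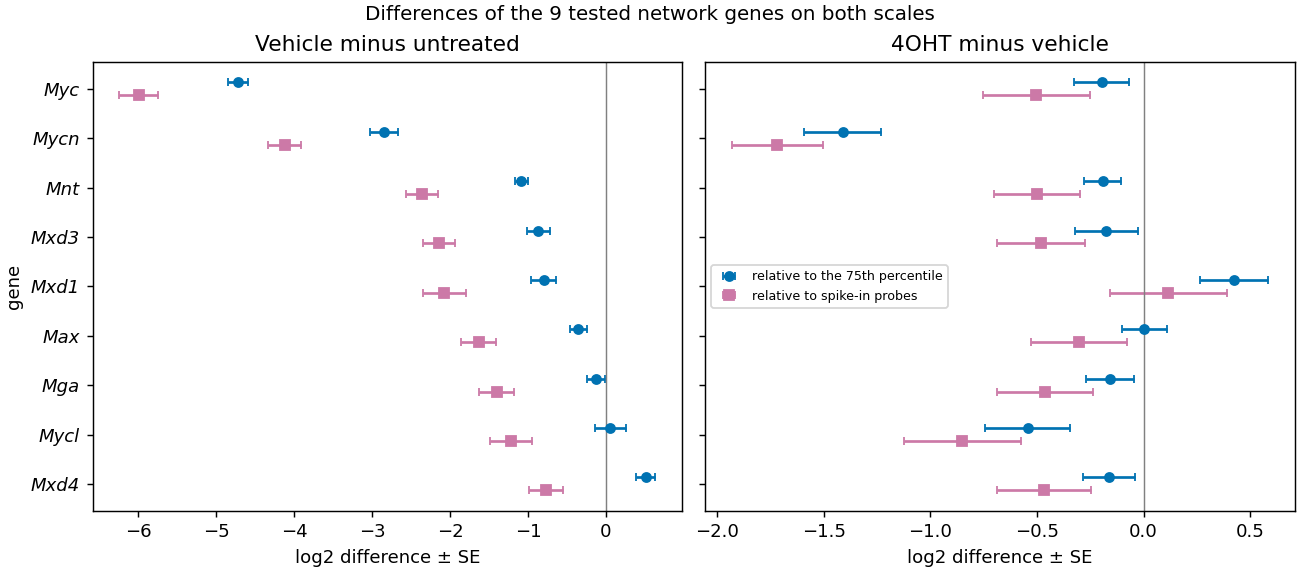
Log2 differences of the 9 tested network genes, vehicle minus untreated and 4OHT minus vehicle, relative to the 75th percentile and on the spike-in scale. Bars are ± SE from the limma fit. Myc and Mycn lie far below the rest in vehicle minus untreated, and in 4OHT minus vehicle Mycn, at -1.41, is the 1 gene called.

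Set against Max on the same array, a comparison in which any scaling of the array cancels, the members moved by very different amounts. Vehicle against untreated, Myc changed by -4.36 relative to Max, Mycn by -2.49, Mnt by -0.73, Mxd3 by -0.51 and Mxd1 by -0.44, and Mxd4 by 0.87. In these 6 genes the arrays of the groups do not overlap, whereas those of Mycl (0.41) and Mga (0.23) do. With 3 arrays against 2, the exact permutation test (two-sided) cannot give a p below 0.2, which these 6 reached (0.267 after adjustment over 8 tests). The share of all features without overlap relative to Max was not counted, so these 6 have no background beside them. Ordered by their fall, Myc and Mycn were each separated from the next, by 1.87 between Myc and Mycn and by 1.76 between Mycn and Mnt. The order was taken from these same differences, so the direction of each gap was fixed by the sorting. Mnt and Mxd3 overlap, as do Mxd3 and Mxd1, Max and Mga, and Mga and Mycl. Max lay 0.44 above Mxd1 in this order and Mxd4 0.45 above Mycl, both without overlap.

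The balance between Myc and Mycn messages shifted between the groups, a comparison chosen after the values were seen. The log2 signal of the Mycn probe minus that of the Myc probe was 2.72 ± 0.16 (SD, n = 3) untreated, 4.60 ± 0.39 (n = 2) with vehicle and 3.38 ± 0.40 (n = 3) with 4OHT. The array ranges were 2.60 to 2.91, 4.32 to 4.87 and 2.92 to 3.62. They do not overlap, and the exact permutation p was 0.2, the smallest possible, for both steps. The change of this difference is the measurement. The size of the difference on 1 array compares different probes and is no ratio of molecules. Under actinomycin D the Myc signal was only 2.54 to 5.43 times the lowest detected signal, which limits its part of the difference. In the step from vehicle to 4OHT, 4OHT and slide cannot be told apart.

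When 4OHT was compared with vehicle under the same block, 1 of the 9 genes was called lower, Mycn, and 0 higher. Over all features limma called 2.58% lower and 0.923% higher. At an unadjusted p below 0.05 there were 2 lower members, Mycn and Mycl, and 1 higher, Mxd1, where 12.8% and 6.33% of all features were. The arrays of the groups did not overlap for 3 members that were lower (Mycn, Mycl and Mnt) and 1 that was higher (Mxd1), beside 24.8% and 13.5% of all features. The members' median was -0.17, beside -0.05 for all features. All 4OHT arrays came from 1 slide and all vehicle arrays from another, so 4OHT and slide cannot be told apart in this comparison.

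Mycn was 2.66-fold lower with 4OHT than with vehicle (-1.41 ± 0.18, adjusted p = 0.015, 95% interval -1.84 to -0.98). The 3 4OHT arrays, at 0.29 to 0.76, all lie below the vehicle arrays, at 1.81 and 2.15, and 1.23% of all features had a difference as low or lower. Measured against the spike-in probes the difference was -1.72 (adjusted p = 0.0058, where 4.14% of all features were called lower), with 30.4% of the vehicle signal present (21.4 to 43.3%). The direction held in 23 of 23 alternative analyses, with differences from -1.72 to -1.03. The call did not: adjusted p ranged from 0.0024 to 0.08 and was above 0.05 in 8 of them, among them without vehicle replicate 1 (-1.58, adjusted p = 0.055), without vehicle replicate 2 (-1.24, adjusted p = 0.062) and without 4OHT replicate 2 (-1.46, adjusted p = 0.053).

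Myc itself differed by -0.20 ± 0.13 between 4OHT and vehicle (adjusted p = 0.47, 95% interval -0.50 to 0.11). Its signal lay only 2.54 to 5.43 times above the lowest detected signal in both groups. The Myc message stood at 1.57% of its untreated signal with vehicle and at 1.11% with 4OHT, on the spike-in scale.

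Mycl and Mxd1 moved in opposite directions without passing the test. Mycl was at -0.54 ± 0.20 (adjusted p = 0.21, 95% interval -1.02 to -0.07). Mxd1 was at 0.42 ± 0.16 on its main probe (adjusted p = 0.21, 95% interval 0.04 to 0.80). The other Mxd1 probe gave 0.83 ± 0.16 (adjusted p = 0.043 in the fit of all kept probes, where 0.939% were called higher), and the mean of both gave 0.63 (adjusted p = 0.029). On the spike-in scale the gene's main probe was at 0.12 (adjusted p = 0.78), and over the alternatives adjusted p ran from 0.029 to 0.78. Whether Mxd1 is called therefore depends on which probe is read.

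The other repressors and Max did not pass the test either. Mnt was at -0.19 ± 0.09 (adjusted p = 0.29), Mxd3 at -0.17 ± 0.15 (0.59), Mxd4 at -0.16 ± 0.12 (0.54) and Mga at -0.16 ± 0.11 (0.52). Max was at 0.00 ± 0.11 (adjusted p = 0.99), with a 95% interval of -0.25 to 0.26. Relative to Max on the same array, Mycn changed by -1.41, Mycl by -0.55, Mxd1 by 0.42 and Mnt by -0.20 without overlap. Myc changed by -0.20 with overlap. For the genes without overlap the exact permutation p was 0.2, the smallest possible, and 0.4 after adjustment over 8 tests. The share of all features without overlap in this ratio was not counted.

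Against untreated cells, 4OHT with actinomycin D gave 6 members called lower and 1 higher, beside 18.7% and 41.0% of all features. This comparison shares its arrays with both others, and here too 4OHT and slide cannot be told apart. Myc was at -4.91 ± 0.11 (adjusted p = 1.2e-06) and Mycn at -4.26 ± 0.16 (4.9e-06). Of their untreated signals 1.11% and 1.75% were left on the spike-in scale. Mnt was at -1.27 ± 0.08 and Mxd3 at -1.04 ± 0.13, with 13.8% and 16.2% left. Max was at -0.35 ± 0.10 (adjusted p = 0.016; 0.05 without 4OHT replicate 2). The calls of Mga (-0.28 ± 0.10, adjusted p = 0.047) and Mxd4 (0.35 ± 0.11, adjusted p = 0.029) were the least firm. Mga was called in 2 of 8 analyses that leave out an array and lost its call without any of the 3 untreated or the 3 4OHT arrays. Mxd4 was called in 4 of 8, losing its call without untreated replicate 1 or 3 or 4OHT replicate 1 or 2, and was at -1.23 on the spike-in scale. Mycl (-0.48 ± 0.18, adjusted p = 0.052) and Mxd1 on its main probe (-0.38 ± 0.14, 0.057) were not called. The other Mxd1 probe was at -1.06 ± 0.14 (adjusted p = 0.00066 in the fit of all kept probes), so here too the call depends on the probe. Mycl was called without either vehicle array or without 4OHT replicate 1, and the main probe of Mxd1 without 4OHT replicate 1 (-0.52, adjusted p = 0.0069). Over the 23 alternatives adjusted p ran from 2e-05 to 0.55 for Max, 2.7e-05 to 0.68 for Mga, 0.00031 to 0.10 for Mxd4, 4.6e-05 to 0.26 for Mycl and 6.6e-05 to 0.47 for Mxd1.

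Profiles over the 8 arrays, each centred on its mean, were compared by Euclidean distance on the log2 scale. Nearest to Myc were Mocs3 (distance 0.42), Zfp830 (0.46) and Foxd3 (0.52), the last a transcription factor of stem cells. Vehicle against untreated they differed by -4.36, -4.63 and -4.72. Nearest to Mycn were Grhl3 (0.57), Nfil3 (0.68) and Tbcc (0.68). Between 4OHT and vehicle these 3 differed by -1.02, -0.92 and -0.99. Max stood closest to Sfrp4 (0.11), Vps9d1 (0.12) and Shroom1 (0.16), each within 0.08 of 0 between 4OHT and vehicle. All these genes were picked by distance over the same 8 arrays, so the likeness of their differences follows from the choice.

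Genes around the network were taken from 7 lists and are described by counts and medians. Their higher calls are relative to the 75th percentile, whose own level dropped. In vehicle against untreated each count stands beside 41.5% of all features called higher, 15.9% called lower and a median of 0.40. The shares between 4OHT and vehicle were 0.923% and 2.58%, and 6.33% and 12.8% at an unadjusted p below 0.05. With each array centred on its median, or without scaling, no list had a member called between 4OHT and vehicle. Quantile normalization shrank most of the named higher values: Hdac1 went to 0.20, Sin3b to 0.29, Wdr5 to 0.12, Usf2 to 0.17, Set to 0.21, Huwe1 to 0.84, Ybx1 to 0.15, Pcbp2 to 0.21, Cdk4 to 0.16 and Ldha to -0.01. On the spike-in scale no list had a member called higher in vehicle against untreated, and the 1 gene there above 0 was Huwe1, a ubiquitin ligase of Myc, at 0.03.

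Other E-box factors of the same structural class, the Mlx arm among them, are described first. Of 11 tested out of 12 (Tfec did not pass the filter), 4 were lower (36.4%, beside 15.9% of all features) and 4 higher (36.4%, beside 41.5%), with a median of 0.26. Mlxipl, the glucose-responsive partner of Mlx, was at -0.87 ± 0.16 (adjusted p = 0.0034), though its other probe gave 0.54. Tfap4 was at -0.84 ± 0.10 (0.00058; -0.52 with the normexp offset). Usf2 (0.87 ± 0.12) and Srebf2, the regulator of cholesterol synthesis (0.66 ± 0.18), were higher, at 0.57 and 0.37 with that offset. The Srebf2 call was lost without vehicle replicate 2. After quantile normalization 4 were lower and 1 higher, and with each array centred on its median 1 and 1. Without vehicle replicate 1, 2 were lower and 3 higher. Between 4OHT and vehicle limma called 0 of the 11 in either direction (2 lower and 1 higher at an unadjusted p below 0.05, beside 12.8% and 6.33% of all features).

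Cofactors that Myc or Mxd proteins recruit were mostly higher on the relative scale. Of 22 tested out of 23 (Zbtb17 did not pass the filter), 17 were higher (77.3%, beside 41.5% of all features) and 2 lower (9.09%, beside 15.9%) in vehicle against untreated and the median difference was 0.64 (spike-in scale, -0.64). After quantile normalization 4 were higher and 5 lower, and with each array centred on its median 7 and 0. Without untreated replicate 2, 0 were lower, and without each other array but 4OHT replicate 1, 1 was. Hdac1, a histone deacetylase, was at 1.17 ± 0.16 (adjusted p = 0.00085), and Sin3b, a scaffold for repression by Mxd proteins, at 1.13 ± 0.13 (0.00045). Ccnt1, the cyclin of the elongation kinase, was at -0.36 ± 0.10 (0.023), and Sin3a, the other scaffold, at -0.28 ± 0.09 (0.029; -0.55 after quantile normalization, -0.58 with the normexp offset). Both falls were lost without either vehicle array. They were also lost without untreated replicate 2, that of Ccnt1 without untreated replicate 3, and that of Sin3a without untreated replicate 1 or 4OHT replicate 2 or 3. With 4OHT, Sin3a was the 1 cofactor called, at -0.58 ± 0.09 against vehicle (adjusted p = 0.022), a call lost without either vehicle array or any 4OHT array.

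The 12 partners of Mga in its Polycomb complex gave 6 higher (50%, beside 41.5% of all features) and 1 lower (8.33%, beside 15.9%), and the median difference was 0.66 (spike-in scale, -0.62). After quantile normalization 3 were higher and 4 lower. Without untreated replicate 1 or 2 or either vehicle array, 0 were lower. Wdr5, a histone-binding subunit, was at 0.94 ± 0.11 (adjusted p = 0.00047) and Hdac1, shared with the cofactor list, at the value above. Ring1, a ubiquitin ligase subunit, was at -0.48 ± 0.15 (adjusted p = 0.027), lost without untreated replicate 1 or 2 or either vehicle array, and at -0.05 with the normexp offset. Pcgf6, the subunit that defines this complex, was not called there (-0.26 ± 0.11, adjusted p = 0.078). It was lower with 4OHT than with vehicle, at -0.70 ± 0.11 (adjusted p = 0.024), a call lost without untreated replicate 3, either vehicle array or any 4OHT array.

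Regulators of Myc protein stability numbered 26. Of these, 8 were lower (30.8%, beside 15.9% of all features) and 11 higher (42.3%, beside 41.5%), and the median difference was -0.04 (spike-in scale, -1.31). After quantile normalization 11 were lower and 5 higher. Axin1, a scaffold that promotes Myc phosphorylation by Gsk3, was at -1.60 ± 0.14 (adjusted p = 0.00023) and Fbxo28 at -1.43 ± 0.16 (0.00045), though at -0.12 with the normexp offset. Huwe1 was at 1.31 ± 0.17 (0.00071) and Set, an inhibitor of the phosphatase PP2A, at 1.16 ± 0.08 (0.00012). Between 4OHT and vehicle, Plk1, a mitotic kinase, was at -1.12 ± 0.15 (adjusted p = 0.017) and Axin1 at -0.93 ± 0.14 (0.023). Pim1, a kinase induced by LIF, was at 0.63 ± 0.09 (0.018). The Plk1 call was lost without vehicle replicate 1 or 4OHT replicate 2 or 3. That of Axin1 was lost without untreated replicate 1, vehicle replicate 1 or any 4OHT array, and that of Pim1 without either vehicle array or 4OHT replicate 2 or 3.

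Proteins that bind the Myc message or its promoter were mostly higher on the relative scale. Of 23, 18 were higher (78.3%, beside 41.5% of all features) and 3 lower (13%, beside 15.9%), and the median difference was 0.80 (spike-in scale, -0.48). After quantile normalization 9 were higher and 4 lower. The 3 falls were all of the Zfp36 family, which recruits the deadenylation machinery to AU-rich messages. Zfp36l2 was at -2.96 ± 0.09 (adjusted p = 5e-06) and Zfp36l1 at -0.83 ± 0.17 (0.0049). Zfp36 was at least 3.54-fold lower, a bound because no vehicle array had it well above background, and with the normexp offset its difference was -0.016. It passed the filter only through the untreated arrays, where it is high. Its call (adjusted p = 0.00012 in the limma fit) was computed from vehicle signals not well above background, so it adds little support. Ybx1 (1.18 ± 0.18) and Pcbp2 (1.12 ± 0.13) were the highest. With 4OHT, Zfp36l1 was higher than with vehicle, at 0.99 ± 0.17 (adjusted p = 0.031), a call lost without untreated replicate 1, either vehicle array or any 4OHT array. Puf60, which represses Myc transcription, was lower, at -1.16 ± 0.09 (adjusted p = 0.0051), and was called in 8 of 8 analyses that leave out an array. The Puf60 call was lost with each array centred on its median and without scaling.

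Among 32 genes known as activated by Myc, 21 were higher (65.6%, beside 41.5% of all features) and 3 lower (9.38%, beside 15.9%) in vehicle against untreated, and the median difference was 0.67 (spike-in scale, -0.61). After quantile normalization 4 were higher and 7 lower. Ppan was at -1.54 ± 0.10 (adjusted p = 7.4e-05) and Gnl3, also called nucleostemin, at -1.50 ± 0.12 (0.00016), both nucleolar proteins of ribosome assembly. Ldha (1.12 ± 0.11, adjusted p = 0.00029) and Cdk4 (1.08 ± 0.11, 0.00033) were higher. Between 4OHT and vehicle 3 targets were lower and 0 higher in the limma fit, beside 2.58% and 0.923% of all features (7 and 2 at an unadjusted p below 0.05, beside 12.8% and 6.33%). Gnl3 was at -1.39 ± 0.12 (adjusted p = 0.0056) and was called in 8 of 8 analyses that leave out an array. Its call was lost with each array centred on its median and without scaling. Ppan was at -0.90 ± 0.10 (adjusted p = 0.010; 0.058 without vehicle replicate 1). The third was Eif4e, the cap-binding factor, at -0.87 ± 0.12 (0.017), with -0.31 on its other probe. The Eif4e call was lost without either vehicle array or 4OHT replicate 2 or 3. Without vehicle replicate 1, 1 target was lower, and without vehicle replicate 2 or 4OHT replicate 2 or 3, 2 were. Gnl3 and Ppan were called lower in both steps, as were Mycn and, from other lists, Axin1 and Sin3a. A link between these genes and Mycn was not tested.

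Of 10 genes known as repressed by Myc, 5 were lower (50%, beside 15.9% of all features) and 3 higher (30.0%, beside 41.5%), and the median difference was -0.54 (spike-in scale, -1.81; 0.51 with the normexp offset, where 3 were lower and 5 higher). Without vehicle replicate 2, 3 were lower. Cdkn1a, the p21 inhibitor of the cell cycle, was at -2.84 ± 0.11 (adjusted p = 1.1e-05). Cdkn2b was at -1.85 ± 0.49 (0.015), well above background on 1 of 2 vehicle arrays and not called without vehicle replicate 2, and at -0.21 with the normexp offset. Gas1 was at 1.20 ± 0.12, although its other probe gave -0.97, and Ndrg2 at 1.02 ± 0.15. Between 4OHT and vehicle, Gadd45a, a stress-response gene, was at 0.82 ± 0.10 (adjusted p = 0.013), lost without vehicle replicate 1 or 4OHT replicate 2. Cdkn1a was at 0.58 ± 0.11 (adjusted p = 0.043; 0.33 with that offset), a call lost without any 1 of the 8 arrays.

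**Figure D3:**
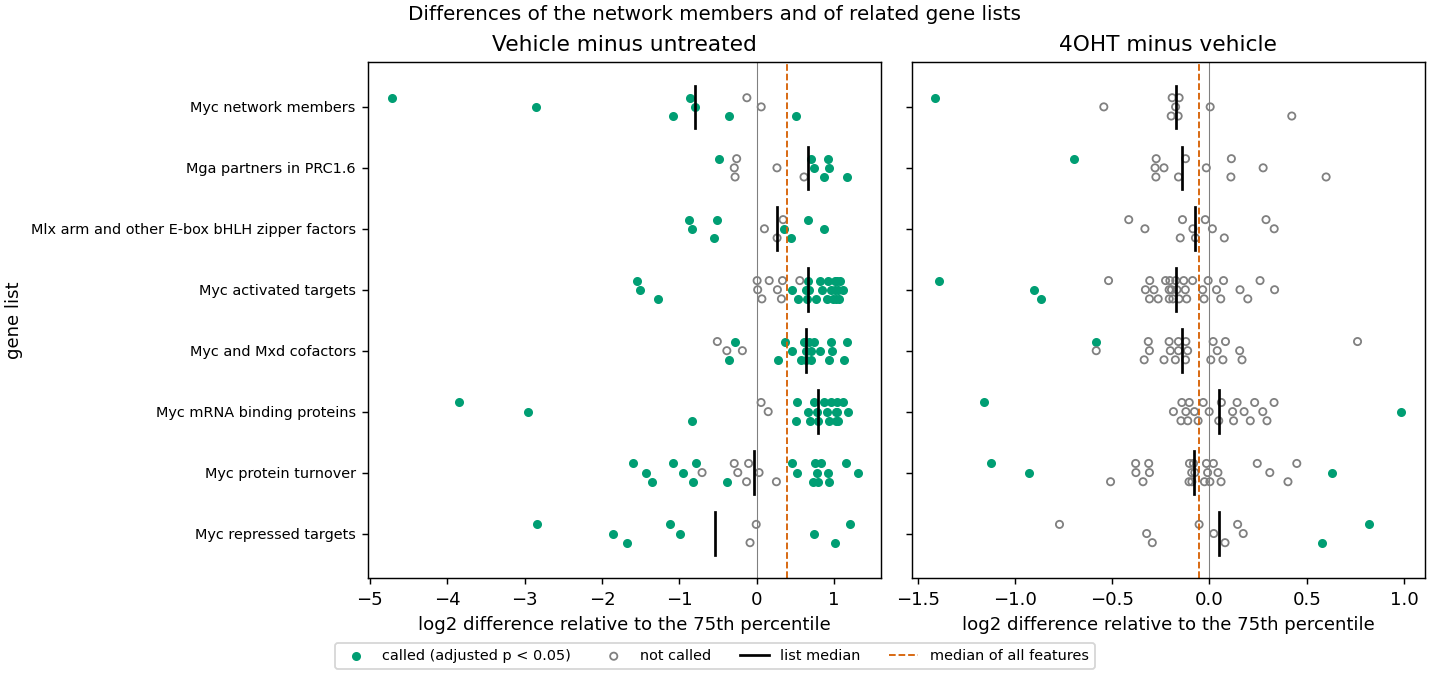
Log2 differences relative to the 75th percentile for the network members and the 7 related lists, vehicle minus untreated on the left and 4OHT minus vehicle on the right. Each point is a gene, filled where called, the bar is the list's median and the dashed line the median of all features (0.40 and -0.05). The members' median of -0.80 lies below the dashed line on the left, and few points are filled on the right.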

How the data were processed

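Per the labels, 100 ng of total RNA was labelled for each of 8 arrays. Per the file headers, which name build mm9, Agilent Feature Extraction 11.0.1.1 gave a background-subtracted linear intensity for each spot (its processed signal). The deposited value table holds the same intensity to within 1% for 100% of probes. The labels name Cy5, and the files hold the green channel.

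Of 59305 spots that are not controls (0 saturated), those of a probe were averaged without spots marked as outliers. On 1 array or more, 466 probes had only marked spots, and these probes were left out. Values are log2 signal minus the array's 75th percentile. Probes well above background throughout 1 group or more were kept (33008). A gene is its kept probe with the highest mean. Symbols come from RefSeq accessions (27656 probes, GRCm38.p6, names only). limma 3.58.1 in R 4.3.3 fitted the 3 groups together (5 residual degrees of freedom, two-sided, Benjamini-Hochberg over 28491 features). P-values measure the spread between these arrays, whose number limits the precision. A bound ("at least") sets the brighter mean against the lowest signal well above background. The spike-in scale subtracts the mean log2 signal of 8 control probes. The fit was also run on simulated arrays with independent noise and few changed features. No scaling was simulated, so that run does not show that the calls hold under the broad shift seen here.

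The members and lists were chosen with earlier results of these data known. Every member is named. From each list, up to 2 called genes that fell most and 2 that rose most are named in vehicle against untreated and in 4OHT against vehicle. Eif4e, Zfp36l1 in vehicle against untreated and Pcgf6 there were added after their values were seen. Alternatives covered background correction, scaling, filter, choice of probe, fit, a replicate block and leaving out each array.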

Additional observations from a re-analysis of the deposited data

How the results depend on the processing

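Over 23 alternatives, Myc (-5.99 to -3.35), Mycn (-4.12 to -2.68) and Mnt (-2.36 to -1.04) kept direction and call in vehicle against untreated. The single lower call in 4OHT against vehicle, Mycn, became 0 with array medians, no scaling, no filter (48602 features) or the 2 groups alone, and 0 to 1 when an array was left out. With at least 2-fold required, 3 members (10.4% of all features) were lower in vehicle against untreated. The higher call of Mxd4 became 0 in both comparisons with untreated under array medians, no scaling, spike-in scaling or the 2-fold rule, and 0 to 1 without an array. Against untreated, 4OHT also gave 0 higher with no filter. The mean of a gene's probes, or Mxd1 by its other probe (chosen after seeing the data), gave 1 higher call in 4OHT against vehicle. Signs turned for Mycl, vehicle against untreated, with normexp (-0.014), no scaling (-1.04), spike-in scaling (-1.22) and arrays left out (-0.14 to 0.25). They turned for Mxd4 without scaling (-0.59, and -0.71 for 4OHT against untreated) and on the spike-in scale (-0.77 and -1.23). Between 4OHT and vehicle they turned for Max on the spike-in scale (-0.30) and without an array (-0.022 to 0.029), and for Mxd3 without an array (-0.35 to 0.00035). Mga, vehicle against untreated, ranged from -0.27 to 0.021 without an array. The cause was not tested. The median of all features, 0.40 in vehicle against untreated, was 0.54 with normexp, 0.21 after quantile normalization and -0.70 without scaling.

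The labels do not say that a replicate number marks a shared batch. Deviations of same-numbered arrays correlated at 0.36 and 0.22 between vehicle and 4OHT (2 pairs), at -0.03 and -0.19 between untreated and vehicle, and at -0.04, -0.14 and 0.11 between untreated and 4OHT, so the numbers were not taken as pairs. With the replicate block, calls over all features went from 16370 to 15053, from 997 to 20 and from 17034 to 16464 in the 3 comparisons. Under this block 0 members were lower in 4OHT against vehicle (Mycn -1.46, adjusted p = 0.08), 0 were higher in 4OHT against untreated, and Max was at -0.0025 between 4OHT and vehicle. The slide as a random block could not be fitted, since each group lies on 1 slide. Signal over background limits Myc after actinomycin D, Mxi1 and the second probe of Mxd4.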
